A study of Mus musculus with 148 samples.

Results

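The genes described here are the ribosomal protein genes, whose symbols are Rps or Rpl followed by a number (with an optional a, x or l) or Rplp0 to Rplp2, without rows of pseudogenes named Gm or -ps. They make up 81 of the 52634 rows of the count tables. Immune cells were sorted from the lungs and primary tumors of PA-GFP C57BL/6 mice, whose photoactivatable GFP lets cells of a chosen tissue region be marked with light before sorting. All mice were young adult females by the study's methods. Tumor-bearing mice were injected with EO771-tdTomato breast cancer cells in the mammary gland at 8 weeks of age and, for all groups but Pre-MET and Primary, had the tumor resected 3 weeks later. The 63 samples of 27 mice, each 1 tissue of 1 mouse, comprised 3 whole control lungs (labelled Normal), 3 lungs taken before metastasis while the primary tumor was in place (Pre-MET), 4 of the primary tumors themselves and 6 lungs free of relapse after resection. Of metastatic lungs there were 13 sections with metastasis (MET) and 14 of distal normal tissue, and 13 cores and 7 invasive margins marked by photoactivation. Cores and margins were sorted as photoactivated CD31-negative cells, with CD45 added to the gate in the core of mouse 17. The other tissues were sorted as CD31-negative CD45-positive cells, but relapse-free mice 6 and 7 also had plates of photoactivated cells. Transcripts were counted as unique molecular identifiers (UMIs), 1 per captured 3′ end whatever the length of the transcript, in single cells sorted into wells.

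Ribosomal proteins are the protein part of the ribosome: those named Rps belong to the small subunit, which reads the mRNA, and those named Rpl to the large subunit, which joins amino acids. Their mRNAs are among the most abundant of a cell, and many start with a run of pyrimidines, the terminal oligopyrimidine motif, through which their translation follows nutrient and growth signals. The genome also holds many processed pseudogenes of ribosomal protein mRNAs, and naive lymphocytes are known for a high content of ribosomal protein mRNA.

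In all, 23425 annotated immune cells of 56240 wells with a cell were used, with a median of 1133 UMIs per cell (lowest 500) and 48306 to 2745794 UMIs per sample. Samples were sequenced in 12 batches. Each sample was assigned to the batch with the largest number of its immune cells, so a sample may also hold plates of other batches. By this assignment all 3 control lungs were in batch SB102, which held no other group, so group and batch cannot be told apart in comparisons with control lung. No well barcode occurred in more than 1 plate. The 592 empty wells had a median of 8 UMIs, of which 2.39% came from ribosomal protein genes. Each of the 7 lineages had its own marker list as the highest summed list of those checked, and in neutrophils the 6 neutrophil markers summed to 169510 CPM, whose part in the low neutrophil share given below was not tested.

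The counts came from 3′ ends, and reads that mapped to more than 1 position had been discarded. How reads of identical sequence were divided among rows was not tested. The last 60 coding bases of the members with abundant copies are shown because they are identical in the gene and in another row (annotation GENCODE vM21, build GRCm38).
Rpl35: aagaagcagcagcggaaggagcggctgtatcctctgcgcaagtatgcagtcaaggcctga
Gm2000: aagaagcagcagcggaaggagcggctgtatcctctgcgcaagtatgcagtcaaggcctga
Rps9: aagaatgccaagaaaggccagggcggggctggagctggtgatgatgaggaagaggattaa
Gm5905: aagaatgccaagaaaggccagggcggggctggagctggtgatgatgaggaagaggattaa
Rps27: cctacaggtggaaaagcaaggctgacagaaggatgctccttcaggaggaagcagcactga
Rps27rt: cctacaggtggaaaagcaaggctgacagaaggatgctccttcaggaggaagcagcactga
Rps27l: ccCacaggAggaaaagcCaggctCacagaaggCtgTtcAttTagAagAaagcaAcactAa
The capitals in Rps27l, a paralog of Rps27, mark its 12 differences from Rps27, while Rps27rt and Rps27 differed at 0 positions. Of 79 members with an annotated coding end, 55 had the exact end in at least 1 other row and 24 in none, and the end of Rps12, a small subunit protein, was found in 19 other rows. The median level of the members, as mean CPM (UMIs of the row per 1000000 UMIs of the sample's lineage) over 7 lineages, was 272 where the end was in no other row, 144 for the 35 members with 1 or 2 such rows and 46.2 for the 20 members with 3 or more.

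The start of the mRNA is shown for 2 members that differed between groups below and for Rpl3l, the striated-muscle paralog of Rpl3. The 30-base windows come from RefSeq (GRCm38.p6), and capitals mark a run of 8 or more pyrimidines (C or T) on the sense strand that lies within 20 bases of the annotated start.
Rpl35 (chr2:39005117-39005146, minus strand): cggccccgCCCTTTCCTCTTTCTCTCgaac
Rps6 (chr4:86857353-86857382, minus strand): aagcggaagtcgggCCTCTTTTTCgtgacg
Rpl3l (chr17:24727811-24727840, plus strand): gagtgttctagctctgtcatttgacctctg
Such a run was present in 27 of the 59 members with a promoter in the table (45.8%) and in 4300 of all 27025 promoters (15.9%). It was present in 5 of 17 genes of a translation list (elongation and initiation factors and other genes with this kind of mRNA), in 1 of 19 ribosome biogenesis genes and in 12 of 69 genes of mitochondrial ribosomal proteins.

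Members held 1027596 of the 44678167 UMIs of immune cells, or 2.30%. Rows of near-identical copies, defined as transcripts with at least 90% identity to a member over at least 100 bases and 80% of the copy, held 2847752 UMIs (6.37%). These copies were in 850 rows, of which 829 were annotated as pseudogenes and 819 had a UMI. A member's own row mostly held only part of the UMIs summed over it and its copies. The median member had 17.0% of the summed UMIs on its own row, 31 members had under 10% and 17 over 50%.

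The highest members by mean CPM were Rpl4 (1937) and Rpl32 (1480) of the large subunit, Rps14 (1415) of the small subunit, the stalk protein Rplp0 (1120) and its partner Rplp1 (1029). The 5 highest held 31.5% of all member UMIs and the 10 highest 52.4%. Rpl8 of the large subunit had 93.7% of its summed UMIs on its own row. At the low end, Rpl41, which encodes a very short basic protein, had no UMI, while its copy Gm10076 had 16972. Rpl17 of the large subunit had 1 UMI. Rpl23a, of the large subunit near the tunnel exit, had 12, and Rps21 of the small subunit had 44. Rpl13a, a large subunit protein, had 41 UMIs against 52997 on its copy Gm11478. Rpl3, which lies near the peptidyl transferase centre, had 29 UMIs on its own row and 41888 on 21 copy rows. In total 52 members had a copy row above their own.

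**Figure D1:**
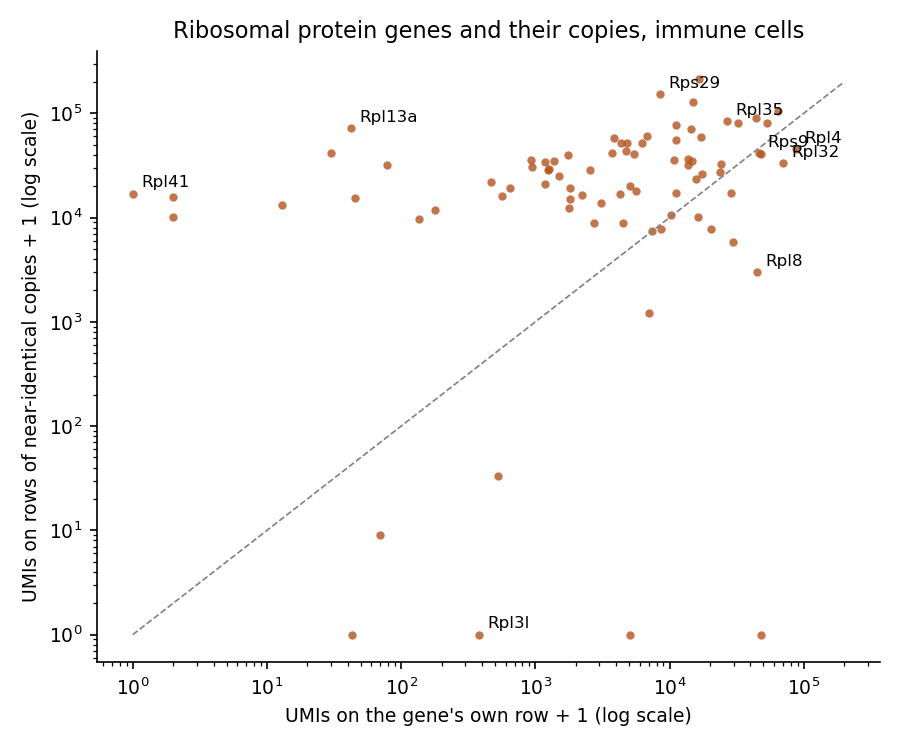
UMIs on each member's own row (x) against UMIs on the rows of its near-identical copies (y), both plus 1 and on log scales, over all immune cells; each point is 1 of 81 genes and the dashed line marks equality. Rpl41 and Rpl13a lie far to the left with 16972 and 72563 copy UMIs, and Rpl3l lies on the lower edge, with no copy row.

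The share of UMIs from ribosomal protein genes was highest in T cells and lowest in neutrophils. It was 4.09% ± 0.88 in T cells (SD over samples with at least 10 cells, n = 61), 3.21% ± 0.59 in B cells (n = 30), 2.46% ± 0.60 in dendritic cells (n = 36) and 2.38% ± 0.42 in NK cells (n = 45). Monocytes had 1.93% ± 0.38 (n = 62), macrophages 1.56% ± 0.40 (n = 40) and neutrophils 0.38% ± 0.13 (n = 42). Within samples, T cells were above neutrophils in 42 of 42, above monocytes in 61 of 61 and above B cells in 26 of 30. NK cells and dendritic cells were not in a fixed order, with NK cells higher in 14 of 28 samples. These values are a description, since the cell labels came from clustering the same transcripts. With copies added, the share was 17.4% in T cells and 1.45% in neutrophils, and members held 23.9% to 26.4% of the sum in every lineage.

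**Figure D2:**
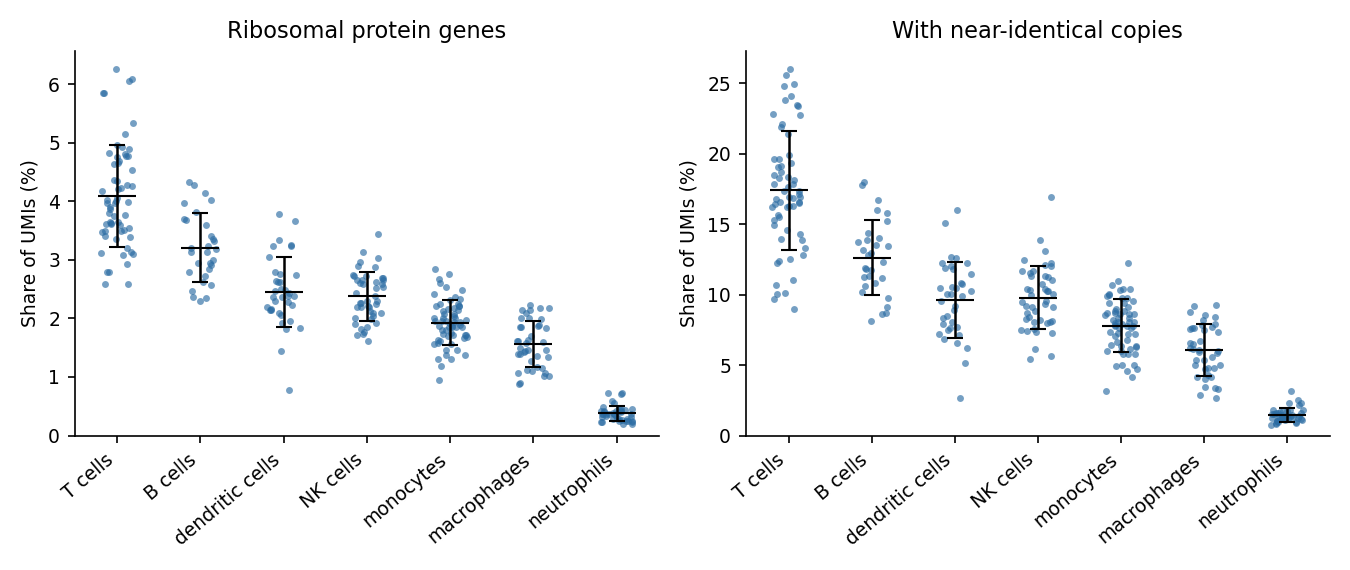
Share of UMIs (%) from ribosomal protein genes (left) and with their near-identical copies (right) by lineage; each point is 1 mouse and tissue sample, the bar is the mean and the whiskers 1 SD. T cells lie highest (4.09%) and neutrophils lowest (0.38%) in both panels.

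All 46 members with a mean of at least 100 CPM were higher in T cells than in neutrophils, by a median of 13-fold. Of all 1792 genes at that level 66.1% were higher in T cells, and the median ratio over all of them was 2.05. The ratio ranged from 1.63 for Rps9, a small subunit protein, to 38.0 for the large subunit protein Rpl36. Rps9 had 1309 ± 292 CPM in T cells and 806 ± 252 in neutrophils, and so made up 27.0% of ribosomal protein UMIs in Neut_Lcn2 but 2.65% in T_CD8_Gzma. Its copy Gm5905 went the same way, with 1250 CPM in T cells and 702 in neutrophils. Rps9 and Rps27l were chosen after their values were seen. The 3 members that varied most in their part of ribosomal protein UMIs by the rule (Rps2, Rpl18 and Rpl21) were at 0 in Neut_Camp or Neut_PMN-MDSC, small subpopulations of 98 and 139 cells.

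Paralogs were compared by the level of their own rows, without copies, in each lineage. Of those named here, Rpl22l1, Rpl7l1 and Rpl36al lie outside the rule. Rps27l, an inducible target of p53, made up 0.452% of ribosomal protein UMIs in T_CD4_Lef1 and 10.5% in migratory dendritic cells. The latter were 117 cells, and only 3 samples, all primary tumors, held at least 10 of them. By lineage, the level of Rps27l was 772 ± 303 CPM in dendritic cells and 314 ± 198 in T cells. Rps27 itself was highest in B cells (596 CPM) and T cells (571 CPM), while Rps27rt, with the identical coding end, was at 3147 and 3742. Rpl22 and Rpl22l1, of which Rpl22 is required for the development of alpha-beta T cells, had 378 and 412 CPM in T cells and 196 and 135 in monocytes, and both were lowest in neutrophils, at 33.7 and 11.8. Rps4x was at 458 CPM in T cells against 6.87 for Rps4l, and Rpl10 was at 527 against 1.64 for Rpl10l. Rpl7l1 and Rpl36al were at 46.4 and 92.5 CPM in T cells, against 522 for Rpl7 and 22.5 for Rpl36a. Rpl39l had 42 UMIs in all and Rpl39 had 8.51 CPM in T cells. Of the UMIs summed over a gene and its copies, the own row held 3.36% for Rpl36a, 1.51% for Rpl39 and 12.6% for Rps27. Levels on own rows therefore do not rank these genes against their paralogs.

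Rpl3l was near 0 in T cells, with a mean of 0.03 CPM and at most 1.21 in a sample. It had 13.2 ± 17.5 CPM in monocytes (median 6.08, n = 62) and 16.3 ± 36.1 in neutrophils (median 0, highest 192, n = 42). The neutrophil mean thus came from a minority of samples, and the levels of these 2 lineages did not differ beyond their spread. The gene Msrb1, which encodes a methionine sulfoxide reductase, starts 499 bases after the end of Rpl3l on the same strand (chr17:24736642-24742778). Msrb1 was at 650 ± 321 CPM in neutrophils, 294 in monocytes and 20.4 in T cells. The part of Msrb1 transcripts in the Rpl3l counts was not tested.

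Among annotated subpopulations, the share was highest in those named for Dapl1 and Lef1, genes of naive T cells. T_CD8_Dapl1 had 5.45% ± 0.65 (n = 9 samples) and T_CD4_Lef1 4.93% ± 0.84 (n = 46), while T_CD8_Gzma had 2.32% ± 0.13 (n = 8) and T_Treg 2.16% ± 0.29 (n = 7). T_CD8_Gzmk lay between, at 3.95% ± 0.90 (n = 45). In 46 samples with both, the naive subpopulations (Lef1 and Dapl1) had 4.91% ± 0.87 and the CD8 subpopulations named for Gzmk, Gzma and Lag3 had 3.59% ± 0.86. The naive cells were higher in 44 of the 46 samples, by 0.46 ± 0.23 on the log2 scale. In cells of at least 1000 UMIs they were higher in 21 of 22. Within neutrophils, all subpopulations lay under 1%, from 0.27% in Neut_Camp to 0.79% ± 0.71 (n = 5) in Neut_PMN-MDSC, where 1 sample was at 2.05%.

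**Figure D3:**
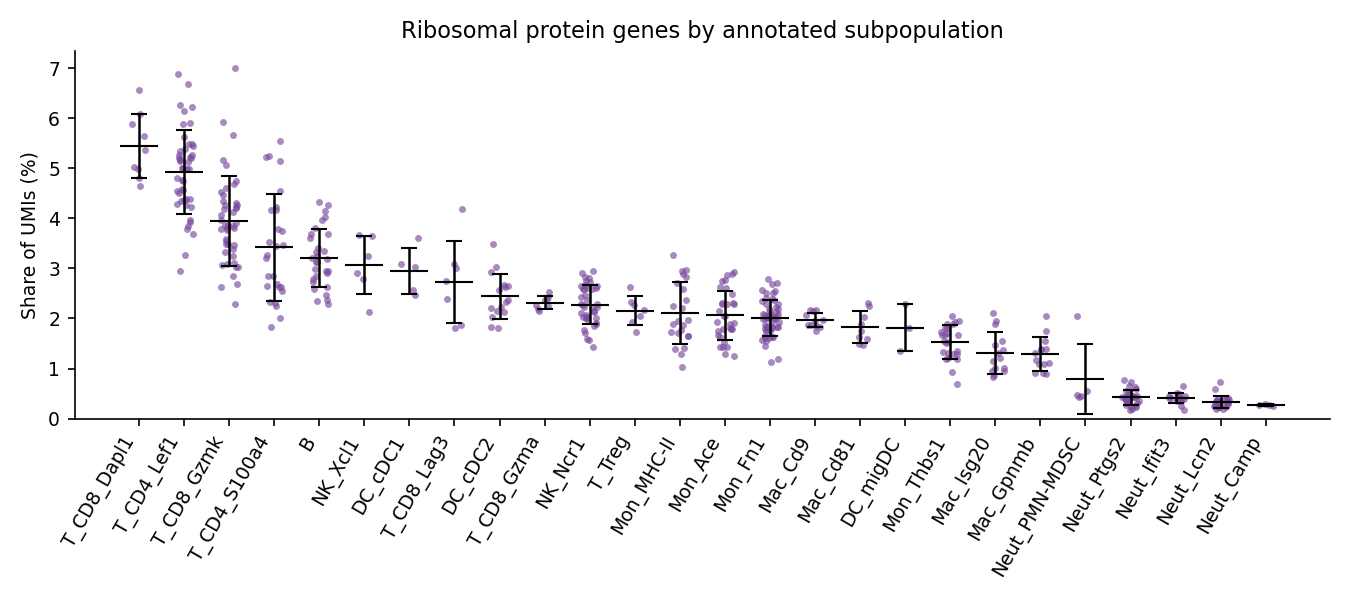
Share of UMIs (%) from ribosomal protein genes by annotated subpopulation, ordered by mean; each point is 1 sample with at least 10 cells of it, with the mean and 1 SD. The T cell subpopulations T_CD8_Dapl1 (5.45%) and T_CD4_Lef1 (4.93%) lie at the top and the neutrophil subpopulations at the bottom.

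The first comparison between conditions asked what differed in lungs before metastasis. In Pre-MET lungs, 7 of the 61 members tested in T cells were higher than in control lungs and 0 lower (edgeR quasi-likelihood test, Benjamini-Hochberg adjusted over all genes), against 1.49% of 3218 genes higher and 0.249% lower. Among the members called were Rpl36, Rps6, Rps7, Rps27, Rpl7 and Rpl35. Shares over all genes, here and below, count the members and their copy rows too. In T cells and in monocytes the genes called higher included the copy rows Gm2000 and Rps6-ps4. These shares are therefore not a background free of ribosomal protein sequence. Rps6, the small subunit protein phosphorylated downstream of mTOR, was at 524, 760 and 791 CPM in the 3 Pre-MET lungs and at 184, 215 and 290 in the 3 controls. The groups did not overlap, and the log2 fold change was 1.60 (SE 0.27, edgeR adjusted p = 0.0198). Rpl36, of the large subunit, was at 336, 408 and 441 CPM against 85.4, 127 and 161, a log2 fold change of 1.66 (SE 0.32, edgeR adjusted p = 0.0289). Rps7, a small subunit protein that also binds Mdm2, was at 405, 544 and 568 CPM against 150, 164 and 207, a log2 fold change of 1.56 (SE 0.28, edgeR adjusted p = 0.0198). In T cells and monocytes, every member called between these groups was without overlap. This describes the called values and is no further test, and the share of all genes without overlap is not given.

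Rps27, Rpl7 and Rpl35 were more abundant and had smaller fold changes, of 1.12, 1.00 and 0.78 on the log2 scale. Rps27, a small subunit protein with a zinc finger, was at 1784, 1915 and 2634 CPM in Pre-MET T cells and at 903, 999.6 and 1016 in control T cells. Rpl7, of the large subunit, was at 1525, 1760 and 1853 CPM against 800, 870 and 919. None of these groups overlapped, nor did those of Rpl35, at 3854, 4832 and 4969 CPM against 2434, 2628 and 2983. Over all 61 members the median log2 fold change was 0.48 and 55 were above 0, against a median of -0.06 over the 3218 genes tested.

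In monocytes, 3 of 61 members were higher in Pre-MET lungs (among them Rps7 by 1.46 and Rps6 by 1.34 on the log2 scale) and 0 lower, against 2.3% of 4953 genes higher and 2.02% lower. In monocytes Rps6 was at 236, 245 and 259 CPM in Pre-MET lungs and at 41.1, 119.5 and 139 in controls, and Rps7 was at 125, 176 and 195 against 47.8, 48.5 and 74.0. For neither gene did the groups overlap. The monocytes came largely from different clusters, with 54.4% to 62.3% Mon_Ace and 23.0% to 24.8% Mon_Fn1 in controls and 18.2% to 26.0% Mon_Ace and 63.7% to 75.0% Mon_Fn1 in Pre-MET lungs. Within Mon_Fn1, Rps6 was at 249.7 to 258 CPM in Pre-MET lungs and 26.9 to 129 in controls, and Rps7 at 128 to 191 against 80.6 to 109.7. Within Mon_Ace, Rps7 was at 80.6 to 161 CPM against 14.01 to 65.2, while Rps6 overlapped, at 121 to 164 against 32.6 to 168. In NK cells 0 of 41 members were called in either direction, against 0% of 1579 genes higher and 0% lower. At an unadjusted p under 0.05, 6 members were higher and 1 lower, and DESeq2 called 0. Here and below, no share over all genes is given for an unadjusted p or for DESeq2. Such counts are not read as results about the members. Fau, which encodes a small subunit protein fused to a ubiquitin-like protein and belongs to the translation list, was also higher in T cells (log2 fold change 1.13, edgeR adjusted p = 0.0407), as the single call among the 24 genes of that list tested there. None of 8 ribosome biogenesis genes and 47 mitochondrial ribosomal protein genes was called in T cells.

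The number of calls changed when 1 mouse was left out, which also makes its group smaller, and with the minimum of UMIs per cell. Counts over all genes are not given for these settings, and the part of the smaller groups in the lower counts was not tested. Over 13 alternatives, none of which turned the direction, the T cell log2 fold change was 1.41 to 1.88 for Rpl36, 1.04 to 1.80 for Rps6 and 1.10 to 1.70 for Rps7. With cells of at least 1000 UMIs, 0 members were called in T cells and 1 in monocytes. Without control mouse 1, control mouse 2 or Pre-MET mouse 9, no member was called in T cells, and without control mouse 3 or Pre-MET mouse 8 it was 1. In monocytes 0 were called without control mouse 2 or Pre-MET mouse 8, and 1 without control mouse 1, Pre-MET mouse 9 or Pre-MET mouse 10. The next setting was chosen after seeing the data. The shares of all genes given above come from the main counts, so its counts of members have no share over all genes beside them. When the UMIs of near-identical copies were summed with their member, 22 of 77 members were higher in T cells, 18 of 77 in monocytes and 0 in NK cells. The log2 fold changes of Rps6 and Rps7 were then smaller, at 1.04 and 1.10 in T cells and 0.98 and 0.76 in monocytes, and both stayed past the threshold in both lineages.

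The share of ribosomal protein UMIs was also compared, in lineages with and without calls. In T cells it was 6.14% ± 0.11 in Pre-MET lungs and 4.93% ± 0.36 in controls, with no overlap (n = 3 each). It was 2.63% ± 0.11 against 2.28% ± 0.12 in monocytes, 2.83% ± 0.16 against 2.34% ± 0.21 in NK cells, where no member was called, and 4.25% ± 0.09 against 3.61% ± 0.40 in B cells, each with no overlap. Within the monocyte clusters it was 2.82% ± 0.17 against 2.21% ± 0.15 in Mon_Ace and 2.57% ± 0.10 against 2.22% ± 0.12 in Mon_Fn1, neither with overlap. Dendritic cells (3.25% ± 0.58 against 3.10% ± 0.26) and neutrophils (0.40% ± 0.05 against 0.57% ± 0.15) overlapped. The make-up of the T cells moved as well, with 64.3% to 78.2% naive (Lef1 and Dapl1) in Pre-MET lungs and 56.3% to 62.7% in controls. Within the naive cells the share was 6.24% to 6.70% against 5.19% to 5.91%, and within the CD8 cells named for Gzmk, Gzma and Lag3 it was 4.80% to 7.01% against 3.31% to 3.91%, both with no overlap. The 1 relapse-free lung assigned to batch SB99 together with Pre-MET mice 8 and 9 had a share of 5.86% in T cells, above the 3.62% to 4.89% of the 5 other relapse-free lungs. It was also inside the range of the Pre-MET lungs for Rps6 (638 CPM), Rps7 (510), Rpl36 (349) and Rps27 (2179), and below it for Rpl7 (1132) and Rpl35 (3834). In T cells of the 5 other relapse-free lungs Rpl36 was at 463, 325, 295, 289 and 86.1 CPM, so high Rpl36 was not particular to Pre-MET lungs or to SB99. In these lungs Rps6 was at 104 to 370 CPM and Rps7 at 153 to 323, below the Pre-MET lungs. Marker UMIs of other lineages moved too: the 6 neutrophil markers summed to 643 to 1112 CPM in Pre-MET T cells and 158 to 402 in control T cells, and their part in the result was not tested.

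**Figure D4:**
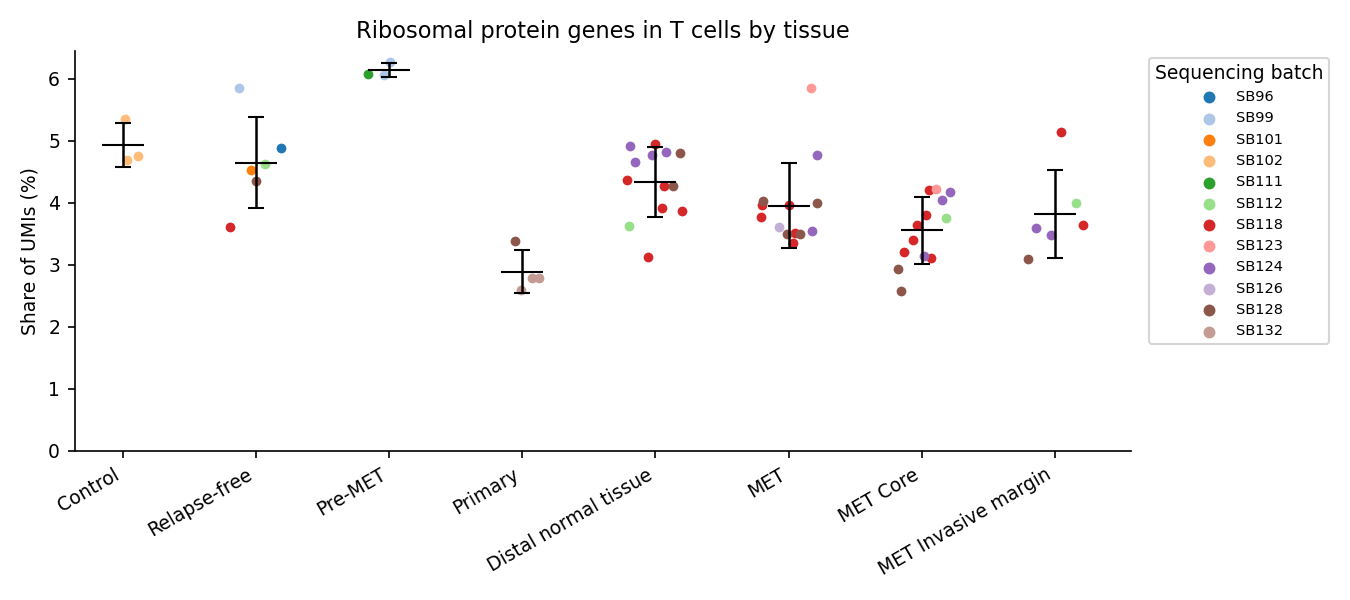
Share of UMIs (%) from ribosomal protein genes in T cells by tissue; each point is 1 sample, coloured by sequencing batch, with the mean and 1 SD. Pre-MET lungs (6.06% to 6.27%) lie above controls, and the relapse-free lung of batch SB99 (5.86%) lies beside them.

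Levels of some members differed widely between sequencing batches. Over the 12 batches the mean T cell level of Rpl35, a large subunit protein near the exit tunnel, ran from 122 CPM in SB132 to 4545 in SB99, a ratio of 37.3, while its copy Gm2000 ran from 2080 to 5026. Rps10, of the small subunit, ran from 33.9 to 1544 CPM. Rps9 stayed between 1157 and 1464 CPM. Of 46 members, 11 had a ratio over 10 between the highest and the lowest batch in T cells and 9 in monocytes. With the copies summed, 0 did in either lineage, and the highest ratio in T cells was 6.67. The median ratio hardly moved, from 3.14 to 3.06 in T cells and from 2.75 to 2.77 in monocytes, and 24 and 26 of the 46 members had a smaller ratio with copies. Batches also differ in their groups, so these ratios hold differences between tissues too.

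**Figure D5:**
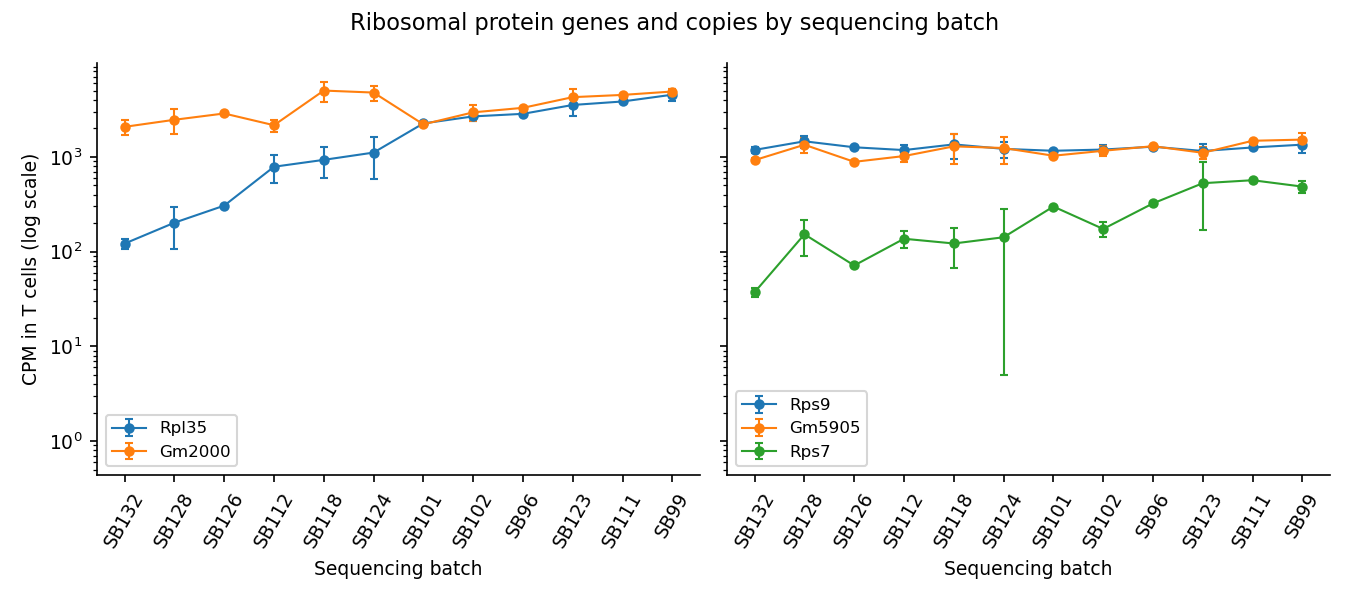
Mean CPM in T cells (log scale) of Rpl35 and its copy Gm2000 (left) and of Rps9, its copy Gm5905 and Rps7 (right) by sequencing batch, ordered by Rpl35; whiskers are 1 SD over samples where a batch has more than 1. Rpl35 ran from 122 to 4545 CPM while Rps9 stayed between 1157 and 1464.

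Metastases were compared with distal normal tissue, largely of the same mice, to ask what is particular to the lesion. In macrophages, 1 of 31 members was lower in MET and 0 were higher, against 2.64% of 1289 genes lower and 6.9% higher. At 3.23%, members were called lower at about the rate of all genes. The 1 called was Rplp1, a stalk protein that recruits elongation factors. It ranged from 218 to 876 CPM in 9 metastases (median 607) and from 794 to 1648 in 6 distal tissues (median 1374), with overlap through the distal tissue of mouse 17. The log2 fold change was -0.96 (SE 0.31, edgeR adjusted p = 0.0446). With at least 20 cells per sample it was -0.41. Of the distal tissues only that of mouse 23 (20 cells) was then left, so this setting cannot test the change. The macrophages of the 2 tissues came from different clusters: Mac_Cd9 made up 57 of 89 cells in distal tissue and 41 of 499 in MET, where Mac_Isg20 (199) and Mac_Gpnmb (169) were most frequent. Rplp1 made up 7.72% of ribosomal protein UMIs in Mac_Cd9, 4.32% in Mac_Gpnmb and 3.58% in Mac_Isg20, and within Mac_Cd9 its level was 1393, 1459 and 1750 CPM in the 3 distal tissues and 2546 in the 1 metastasis with at least 10 such cells.

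No member was called in the other 4 lineages tested, and B cells and dendritic cells were not tested here. In T cells this was 0 of 29 (0% of 394 genes higher, 0% lower), with 0 members higher and 2 lower at an unadjusted p under 0.05 and 0 by DESeq2. In NK cells it was 0 of 23 (0% of 514 genes higher, 0% lower), with 1 higher and 1 lower at that p and 0 by DESeq2. In monocytes it was 0 of 40 (1.48% of 2098 genes higher, 0% lower), with 0 and 1 at that p and 0 by DESeq2. Neutrophils had 2 members that passed the filter and 0 calls by edgeR or DESeq2 (0% of 715 genes higher, 0% lower), with 0 at that p.

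Within mice, the share in T cells was lower in the metastasis than in distal normal tissue in 9 of 12 mice, by 0.15 ± 0.25 on average on the log2 scale. It was lower in 9 of 13 mice in monocytes, in 4 of 5 in macrophages and in 1 of 5 in NK cells. In metastatic cores the T cell share was below distal normal tissue in 10 of 12 mice, the monocyte share in 10 of 13 and the macrophage share in 4 of 5, while the NK cell share was below it in 1 of 7, with a mean log2 difference of 0.25 ± 0.30. The share of mitochondrial transcripts in T cells was also lower, at 2.66% ± 0.45 in cores against 3.50% ± 0.55 in distal tissue (n = 13 each), and its part in the result was not tested. Of the 11 T cell pairs whose tissues were assigned to the same batch, 9 were lower in the core. The monocytes and macrophages of the 2 tissues came from different clusters. Mon_Thbs1 made up 43.7% ± 23.8 of monocytes in cores and 5.28% ± 4.77 in distal tissue, and Mon_Fn1 32.6% ± 15.3 and 68.8% ± 16.6, while Mac_Cd9 made up 3 of 400 macrophages in cores. Within Mon_Fn1 the share was 1.92% ± 0.45 in 7 cores and 2.00% ± 0.25 in 13 distal tissues, with overlap, and Mon_Thbs1 was at 1.56% ± 0.44 in 8 cores. Whole metastases lay between in this mix, with 25.5% ± 18.8 Mon_Thbs1 and a share of 1.93% ± 0.31 within Mon_Fn1. The T cells of the core were also less often naive in 12 of 12 mice, at 28.2% ± 10.6 against 55.2% ± 7.4 in distal tissue. Within naive cells the share was lower in the core in 9 of 9 mice with enough cells of both (4.29% ± 0.58 against 5.13% ± 0.40), and within the CD8 cells named for Gzmk, Gzma and Lag3 it was lower in 5 of 8. In the whole metastasis, 9 of 12 mice had fewer naive cells among T cells, and the share within naive cells was lower in 4 of 7.

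Cores were compared with invasive margins to ask for differences within the lesion. No member was called, with 0 of 44 in T cells (0% of 1195 genes higher, 0% lower), 0 of 28 in monocytes (0% of 1025 genes higher, 0% lower) and 0 of 32 in macrophages (0% of 1743 genes higher, 0% lower), and 0 by DESeq2 in each. At an unadjusted p under 0.05, edgeR gave 0 members in T cells, 1 lower in monocytes and 0 in macrophages. The T cell share was lower in the core in 4 of 5 mice, and the percentage of naive T cells in 5 of 5.

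Primary tumors were compared with metastatic cores. Rpl35 was lower in primary tumors in T cells, as 1 of 50 members with 0 higher, against 0.228% of 2197 genes lower and 0.364% higher. It was also lower in monocytes, as 1 of 36 with 0 higher, against 0.926% of 1835 genes lower and 0.545% higher. In T cells Rpl35 was at 104, 126, 135 and 140 CPM in the 4 primaries and at 49.0 to 2968 in 13 cores (median 790). The groups overlapped, with a log2 fold change of -2.64 (SE 0.58, edgeR adjusted p = 0.0179). With its copies summed it was -0.92 (edgeR adjusted p = 0.173) in T cells and -0.85 (edgeR adjusted p = 0.338) in monocytes. The T cell mix and depth differed too: the CD8 cells named for Gzmk, Gzma and Lag3 made up 22.9% ± 5.2 of T cells in primaries and 54.4% ± 8.6 in cores, and the median UMIs per cell averaged 1944 and 866. Within those CD8 cells Rpl35 was at 68.1 to 198 CPM in primaries and 41.6 to 2685 in 12 cores (median 606), and within naive cells at 138 to 208 against 73.8 to 3876 in 10 cores (median 1053), both with overlap. The 2 cores of batch SB128, which holds the primary tumor of mouse 8, were at 49.0 and 235 CPM, on either side of its 140, and the 3 other primaries were alone in batch SB132. With batch as a term the fold change turned to 0.14, and without any 1 of the 4 primaries (mice 8, 9, 10 and 38) 0 members were called. In monocytes the log2 fold change was -2.52 (SE 0.64, edgeR adjusted p = 0.0428), from 42.0, 54.2, 84.0 and 109 CPM in the primaries and 50.2 to 1632 in the cores, and with batch as a term it was 1.03. Mon_MHC-II made up 44.6% ± 8.9 of monocytes in primaries and 11.8% ± 10.4 in cores, and Mon_Fn1 10.9% ± 1.7 and 32.6% ± 15.3. Within Mon_Fn1 Rpl35 was at 30.2 to 128 CPM in the primaries and 90.4 to 2183 in 7 cores, with overlap. In macrophages 0 of 39 were called (1.67% of 2162 genes higher, 2.87% lower), with 3 higher and 2 lower at an unadjusted p under 0.05, and 1 higher and 1 lower by DESeq2.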

How the data were processed

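The deposited files hold raw UMI counts per gene row and well for 148 plates of 384-well sorts, made by the authors from 3′ libraries: bcl2fastq (2.15.0.4 per the submitters' processing notes) gave reads that were mapped to mm10 with HISAT, multi-mapping reads were excluded, and reads were assigned to exons. The authors removed cells under 500 UMIs and clustered the rest into the annotated subpopulations used here. Doublets had been excluded by the sort gates and no caller was run. Wells labelled as erythrocytes, outliers or tumor cells (595) were left out.

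Counts were summed per sample (mouse and tissue) and lineage, with at least 10 cells, and tested with edgeR 4.0.16 (R 4.3.3), adjusted over all genes tested, at 0.05. Since p-values rest on sums per mouse and tissue, cells were not replicates. Alternatives were DESeq2 1.42.0, other normalizations and filters, cells of at least 1000 UMIs, at least 20 cells, a batch term, a replicate block and leaving out each mouse. Copies were found with BLAST+ 2.17.0. Tested on simulated data, the Pre-MET fit in T cells (3242 genes) recovered 75.8% of 4-fold and 4.29% of 2-fold changes. The fits of MET against distal normal tissue recovered 100% of 4-fold changes. Of 2-fold changes they recovered 84.9% in T cells (358 genes) and 93.2% in monocytes (2078 genes). For primary tumors against cores in T cells (2189 genes) it was 94.8% of 4-fold and 22.7% of 2-fold changes. False calls in these fits, in this order, were 1, 19, 9 and 6. Samples of 1 mouse pair by animal, and their deviations correlated with a median r of 0.04 to 0.47 over the fits.

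The genes and lists were chosen with earlier results of these data known. Named genes were the 5 highest and 5 lowest members, paralog pairs, the 3 most variable members and up to 3 called members in each direction per comparison. Some members that this rule names are not reported here.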

Additional observations from a re-analysis of the deposited data

Results flagged for a closer look

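In macrophages, the distal normal tissue of mouse 17 stood apart from the 5 other distal tissues, with a share of 1.07% from ribosomal protein genes against 1.83% in the nearest. It held 10 cells. Of 29 groups tested for such a sample this was 1, and chance gives about 1 in 20.

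Of the wells outside the immune comparisons, 2 classes held a larger share of ribosomal protein UMIs than the 2.39% of the empty wells. The share was 2.91% in the 94 wells labelled as tumor cells and 2.73% in the 32220 wells without an annotation, which had a median of 186 UMIs. It was lower in the 336 wells labelled as erythrocytes (2.24%) and the 165 labelled as outliers (1.68%).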

How the results depend on the processing

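Shares of all genes called were given above for the main setting at the adjusted threshold only. The number of called members changed with several choices. For Pre-MET against control lung it was 7 in T cells, 0 with cells of at least 1000 UMIs, 22 with near-identical copies summed (an alternative chosen after seeing the data), and 0 to 6 without 1 mouse. In monocytes it was 3, then 1 with cells of at least 1000 UMIs, 18 with copies summed and 0 to 2 without 1 mouse, and in NK cells 0, then 3 with cells of at least 1000 UMIs. For MET against distal normal tissue, no filter gave 1 in monocytes and 2 in macrophages, where 1000 UMIs gave 0 and copies summed gave 2. At least 20 cells per sample left only the distal tissue of mouse 23 in macrophages, so no count is given for it. For primary tumors against cores in T cells, DESeq2 gave 4, no filter 2, and copies summed, cells of 1000 UMIs, the batch term and leaving out 1 primary gave 0. In monocytes no filter gave 3, at least 20 cells 3, and the same other settings 0. In macrophages DESeq2 gave 2 and no filter 1. The cause was not tested. The change of Rpl35 reversed to 0.14 in T cells and 1.03 in monocytes with the batch term. The replicate block by mouse left Rplp1 called in macrophages (log2 fold change -1.24) and changed no call, with 0 members called in T cells, NK cells, monocytes and neutrophils of that comparison and in all 3 lineages of cores against margins. No block could be fitted for Pre-MET against control lung, whose mice differ.

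The share of UMIs from ribosomal protein genes moved with the rows counted. With -ps rows it was 8.77% in T cells, 4.93% in NK cells, 6.45% in B cells, 4.01% in monocytes, 3.14% in macrophages, 0.70% in neutrophils and 4.95% in dendritic cells. With copies it was 17.4%, 9.77%, 12.6%, 7.80%, 6.06%, 1.45% and 9.62%. Of the members, 10 had under 100 UMIs on their own rows, some of them beside abundant copy rows (Rpl41, Rpl13a and Rpl3).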
